A study of Mus musculus with 32 samples.

Results

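H3K4me3 intervals found in only 1 of 2 mouse strains were compared, as every interval that the authors listed as specific to B6 or as specific to RJ2. The B6-specific list holds 10835 intervals and the RJ2-specific list 24185, which are 14.3% and 31.8% of the 76034 H3K4me3 intervals of the 3 lists. The other 41014 (53.9%) were common to both strains and served as the shared background. Membership came from the lists alone, and no strain-specific interval overlapped a common one. Between the 2 strain-specific lists the smallest distance was 0 bp, which stands for touching ends or an overlap.

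H3K4me3 was mapped by ChIP-seq in elutriated testis cells at the pachytene stage of adult mice, so the sample is a purified fraction of the testis rather than the whole organ. B6 is C57BL/6JOlaHsd, which carries the Dom2 allele of *Prdm9*. RJ2 is B10.MOLSGR(A)-(D17Mit58-D17Jcs11)/Bdm, a congenic strain with a C57BL/10 background and a segment of chromosome 17 of another origin, which brings the Cst allele of *Prdm9*. The strains therefore differ in the *Prdm9* allele, in the rest of that segment and in background. Each strain had 1 ChIP library and 1 input with an anti-H3K4me3 antibody, and no strain difference can be set against a spread between replicates. The 95% confidence intervals (CI) given below cover the sampling of intervals only, and the depth behind an interval is not in the lists, which hold positions. The starts of 11 of 12 fixed markers of pachytene spermatocytes and of 9 of 10 spermatid markers lay in common intervals, against 40.1% of all protein-coding genes. The corresponding counts were 3 of 11 for spermatogonia, 0 of 9 for Sertoli cells, 0 of 7 for Leydig cells and 0 of 12 for genes of other organs. None of these genes had its start in a strain-specific interval, where 1.58% (B6) and 2.71% (RJ2) of all protein-coding genes had one, so that a count of 0 is near the background.

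PRDM9 is a meiotic histone methyltransferase whose zinc finger array binds DNA and differs between alleles. It deposits H3K4me3 on the nucleosomes around its binding sites, where DNA double-strand breaks are then made. DMC1 is the recombinase that coats the single-stranded ends of these breaks. H3K4me3 also marks active promoters independently of PRDM9, and a strain difference in H3K4me3 can thus arise at PRDM9 sites and at other elements.

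The sequence under the intervals was read from mm9. The sites below are printed because they show a sequence more frequent in the intervals of 1 strain than of the other, though not held by most of them. A position matrix was learned for each strain on odd-numbered chromosomes, and matches were counted on even-numbered ones in the central 400 bp. The B6 matrix is 17 bases long and reads AGATGCTNCTGCCNNNT where a base took at least 50% of the sites, with reverse complement ANNNGGCAGNAGCATCT. The RJ2 matrix is 20 bases long and reads NGNCTNGGNNTGTGACNTTT, with reverse complement AAANGTCACANNCCNAGNCN. The first sequence of each strain is the 200 bp around the match in the interval nearest the median width among those outside exons of even-numbered chromosomes with DMC1, PRDM9 and the strain's word of 9 bases described further on, GCAGCAGCA for B6 and a run of A for RJ2. The RJ2 word lies in the central 400 bp of that interval but outside the 200 bp printed. Capitals mark the match of the strain's own matrix, and minus-strand sites are printed as the reverse complement of the plus strand.
B6, chr10:32216239-32216438, plus strand: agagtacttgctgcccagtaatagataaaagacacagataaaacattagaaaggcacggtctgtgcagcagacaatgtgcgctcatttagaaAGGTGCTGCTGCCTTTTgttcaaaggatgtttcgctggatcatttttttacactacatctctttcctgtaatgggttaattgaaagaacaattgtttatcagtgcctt
RJ2, chr10:68421133-68421332, minus strand: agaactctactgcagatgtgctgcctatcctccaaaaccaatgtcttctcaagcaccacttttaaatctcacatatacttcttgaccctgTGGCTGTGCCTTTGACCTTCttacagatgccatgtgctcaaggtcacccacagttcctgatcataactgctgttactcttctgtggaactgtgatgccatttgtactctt

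The B6 site lies in an interval of 679 bp between genes, from 32215875 to 32216553, with the nearest protein-coding start, that of *Nkain2*, 94035 bp from the centre and the nearest common interval 67139 bp away. The RJ2 site lies in an interval of 794 bp between genes, from 68420849 to 68421642, with the start of *Rhobtb1* 192936 bp away and the nearest common interval at 24430 bp. The B6 match stood 125 bp from the centre of its interval and the RJ2 match 13 bp. Further sites, at intervals of near-median width outside exons with DMC1, PRDM9 and a match, are shown with their flanks to display how much single matches depart from the consensus. They were chosen after the matrices were seen, as the intervals nearest the median width on different even-numbered chromosomes.
B6, chr14:63107509-63107568, minus strand, between genes: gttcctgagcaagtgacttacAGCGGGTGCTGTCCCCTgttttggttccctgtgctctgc
B6, chr4:140458502-140458561, plus strand, between genes: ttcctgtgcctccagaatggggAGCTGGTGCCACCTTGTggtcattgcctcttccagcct
B6, chr8:98302902-98302961, minus strand, intron of Cnot1: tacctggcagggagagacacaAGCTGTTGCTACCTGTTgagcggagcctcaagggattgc
B6, chr2:143638114-143638173, plus strand, intron of Pcsk2: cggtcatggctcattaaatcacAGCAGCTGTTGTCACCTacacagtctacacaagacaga
RJ2, chr16:66046971-66047030, minus strand, between genes: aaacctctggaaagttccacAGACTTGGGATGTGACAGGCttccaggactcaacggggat
RJ2, chr6:117680346-117680405, minus strand, between genes: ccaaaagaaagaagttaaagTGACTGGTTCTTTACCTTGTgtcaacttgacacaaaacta
RJ2, chr4:41025521-41025580, plus strand, between genes: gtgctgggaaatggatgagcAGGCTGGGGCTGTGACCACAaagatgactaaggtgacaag
RJ2, chr8:13927884-13927943, minus strand, intron of Fbxo25: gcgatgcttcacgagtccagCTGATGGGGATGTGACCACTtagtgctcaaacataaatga

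Each matrix was found in more than 35% of the list it was learned for and at the level of moved windows in the other. On even-numbered chromosomes the B6 matrix matched 1755 of 4960 B6-specific intervals (35.4%, CI 34.1 to 36.7%) and 519 of 10954 RJ2-specific intervals (4.74%, CI 4.35 to 5.15%). The RJ2 matrix matched 4110 of 10954 RJ2-specific intervals (37.5%, CI 36.6 to 38.4%) and 244 of 4960 B6-specific ones (4.92%, CI 4.33 to 5.56%). In windows moved by 10 kb to either side, the own matrix matched 5.24% and 4.52% for B6 and 4.94% and 4.98% for RJ2, close to the 5% at which the score threshold was set on odd-numbered chromosomes. Common intervals held the B6 matrix in 5.68% and the RJ2 matrix in 5.26%. Matches stood nearer the centre than matches of the other strain's matrix did, with median offsets of 68 and 67 bp for the own matrix in B6 and RJ2 and of 96.5 and 94 bp for the other. The X chromosome, which was not used in learning, gave 23.3% (CI 19.5 to 27.4%) in B6 and 31.9% (CI 28.7 to 35.3%) in RJ2 for the own matrix, against 5.56% and 3.16% for the other.

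**Figure D1:**
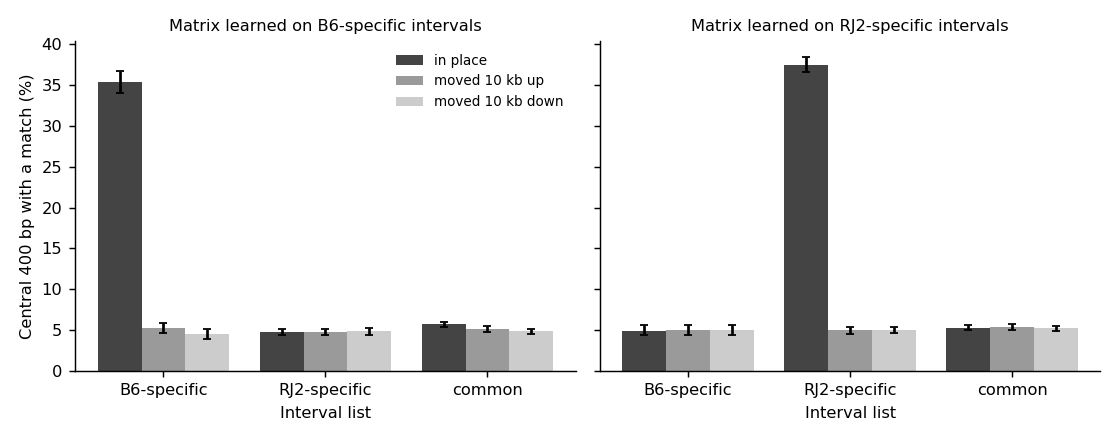
Share of intervals on even-numbered chromosomes whose central 400 bp held a match of the B6 matrix (left) or the RJ2 matrix (right), in percent, for the B6-specific, RJ2-specific and common lists, in place and after moving the window by 10 kb up or down. Bars start at 0 and error bars are 95% Clopper-Pearson intervals; the only bars above 6% are the B6 matrix in B6-specific intervals (35.4%) and the RJ2 matrix in RJ2-specific intervals (37.5%).

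Single words lay in fewer intervals than the matrices and separated the lists far less in percentage points. The word of 9 bases with the largest difference in share on odd-numbered chromosomes was GCAGCAGCA for B6, with reverse complement TGCTGCTGC. On even-numbered chromosomes it lay in 3.53% of B6-specific intervals, 1.0% of RJ2-specific intervals and 1.05% of common intervals. For RJ2 the same rule returned a run of 9 A, found in 10.7% of RJ2-specific and 8.57% of B6-specific intervals but in 12.1% of the RJ2 windows moved by 10 kb. That RJ2 word was less frequent in place than in the moved windows. Learned on even-numbered chromosomes in place of odd ones, the RJ2 word was AGGTCACAT, with reverse complement ATGTGACCT, which shares TGTGAC with the RJ2 consensus. The words of 9 bases with the largest ratio of shares, from which the matrices were grown, were rare but more unequal between the lists. On even-numbered chromosomes GCTACTACC lay in 1.01% of B6-specific and 0.137% of RJ2-specific intervals. GATGTGACC lay in 1.26% of RJ2-specific and 0.282% of B6-specific intervals.

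RJ2 had more strain-specific intervals than B6 and a larger excess of wide ones. There were 2.23 RJ2-specific intervals per B6-specific interval (CI 2.18 to 2.28), and they covered 21.6 Mb against 8.77 Mb. B6-specific intervals had a median width of 722 bp (CI 712 to 730) and RJ2-specific ones of 780 bp (CI 771 to 789), both below the 1097 bp of common intervals. The low ends of the distributions met, with percentile 10 at 414 bp for B6 and 399 bp for RJ2, whereas percentile 90 was 1321 bp against 1564 bp. Per B6-specific interval there were 2.29 RJ2-specific ones under 500 bp, 1.83 from 500 to 1000 bp, 4.74 from 1500 to 2000 bp and 6.72 at 2 kb and more. The widest B6-specific interval measured 6621 bp and lay between genes on chromosome 4 from 142506676 to 142513296. The widest RJ2-specific interval measured 5014 bp, in an intron of *Gm4064* on chromosome Y from 2044953 to 2049966.

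**Figure D2:**
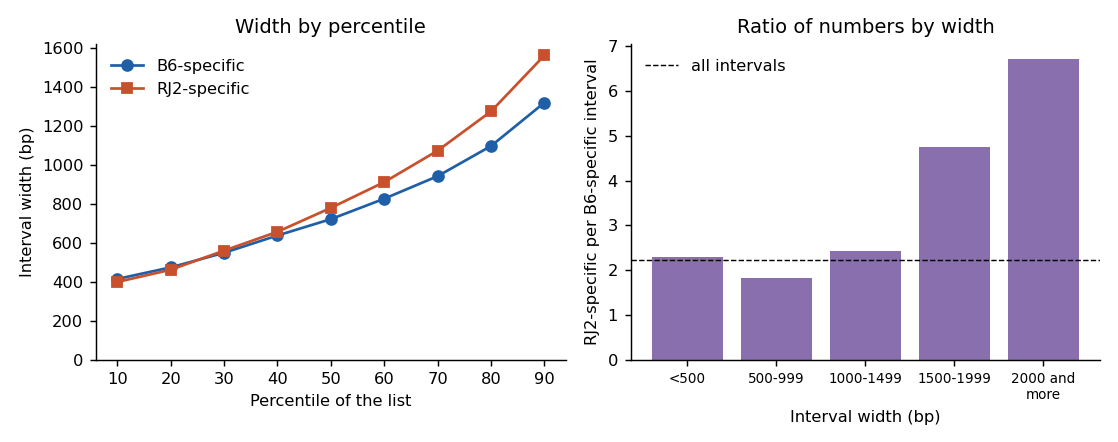
Left, interval width in bp (vertical axis) at percentiles 10 to 90 of the B6-specific and RJ2-specific lists; right, number of RJ2-specific intervals per B6-specific interval in 5 width classes, with the ratio of the whole lists as a dashed line. The lists run together up to percentile 40 (638 and 657 bp) and part towards percentile 90 (1321 and 1564 bp), and the ratio is 6.72 in the widest class.

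The median width differed between the strains mainly among intervals with DMC1. An interval was taken to hold DMC1 when at least 1 bp of it fell in the middle 400 bp of a peak from the same strain, mapped in testes of 5-week-old mice. Intervals with DMC1 had a median width of 922 bp in B6 (CI 912 to 932, n = 6060) and 1106 bp in RJ2 (CI 1098 to 1117, n = 12543). Intervals without DMC1 had medians of 530 bp (CI 522 to 537, n = 4775) and 536 bp (CI 531 to 542, n = 11642), and these CI overlap. More than 10 kb from common intervals the medians without DMC1 were 547.5 bp (CI 538 to 559) and 565 bp (CI 557 to 573). At the wide end the order was the other way, since 48 of the B6-specific intervals without DMC1 (1.01%, CI 0.742 to 1.33%) and 25 of the RJ2-specific ones (0.215%, CI 0.139 to 0.317%) measured 2 kb and more. Per B6-specific interval there were 2.07 RJ2-specific ones with DMC1 and 2.44 without it. With a PRDM9 peak of the strain, mapped in whole testes at 13 days, the ratio was 4.02. The PRDM9 lists themselves hold 2601 peaks in B6 and 10121 in RJ2, and the DMC1 lists 14774 and 15195. The ratio of 4.02 thus carries the unequal sizes of the PRDM9 lists.

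From narrow to wide intervals, DMC1, PRDM9 and the own matrix became more frequent in both strains and transcription starts less frequent. In 5 groups of equal size by width, the share with DMC1 climbed in B6 from 17.7% to 89.8%, and in RJ2 from 11.7% to 95%. PRDM9 peaks of the same strain went from 2.08% to 46.1% and from 3.27% to 81.1%. The own matrix, which was searched in a window of fixed length and so has no gain from width itself, went from 13.6% to 55.0% and from 13.2% to 60.0% on even-numbered chromosomes. Centres within 1 kb of a transcription start declined in B6 from 19.98% to 4.61%, and in RJ2 from 16.4% to 3.60%. At equal width the strains were closer in the matrix than in PRDM9. From 1000 to 1500 bp the own matrix lay in 54.7% of B6-specific (CI 51.6 to 57.8%) and 54.5% of RJ2-specific intervals (CI 52.6 to 56.5%), and PRDM9 peaks in 36.1% (CI 34.1 to 38.1%) and 53.5% (CI 52.2 to 54.8%). From 1500 to 2000 bp the matrix shares were 55.4% (CI 48.8 to 61.9%) and 63.6% (CI 60.6 to 66.6%), and the PRDM9 shares 66.9% and 87.6%. The order for DMC1 turned with width. From 500 to 1000 bp, DMC1 was found in 56.3% of B6-specific (CI 54.9 to 57.6%) and 42.7% of RJ2-specific intervals (CI 41.8 to 43.7%), but from 1500 to 2000 bp in 90.9% (CI 87.8 to 93.4%) and 96.0% (CI 95.1 to 96.8%). The PRDM9 and DMC1 lists come from other libraries with their own depth and acceptance limits in each strain, and the part of these in the strain differences was not tested.

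**Figure D3:**
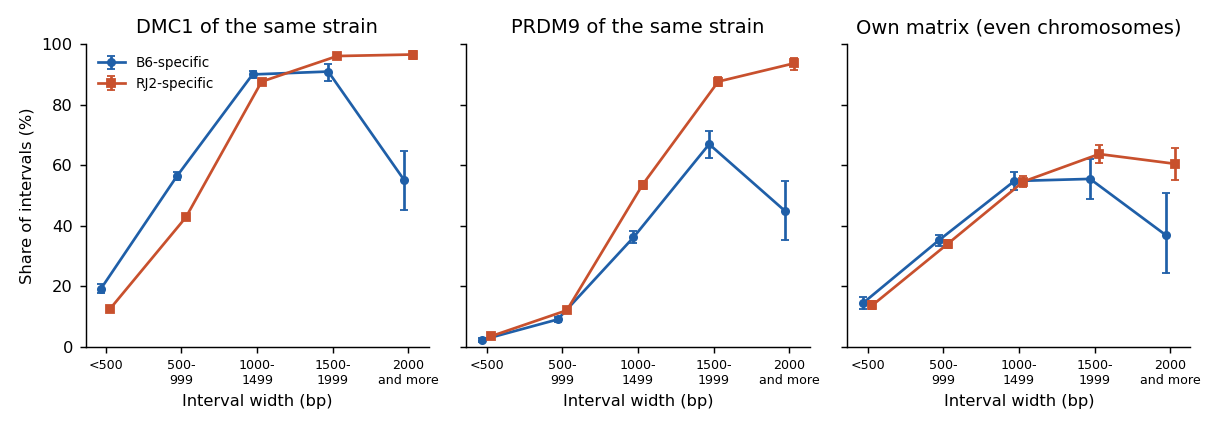
Share of strain-specific intervals (percent, vertical axis) with DMC1 of the same strain, with PRDM9 of the same strain, or with the strain's own matrix on even-numbered chromosomes, in 5 classes of interval width in bp (horizontal axis), for B6 (circles) and RJ2 (squares) with 95% Clopper-Pearson intervals. Shares climb with width in both strains up to 2000 bp, and in the widest class B6 drops to 55.1% for DMC1 while RJ2 stays at 96.5%.

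The widest B6-specific intervals departed from this course. Of 107 B6-specific intervals of 2 kb and more, 59 held DMC1 (55.1%, CI 45.2 to 64.8%), against 90.9% from 1500 to 2000 bp and against 694 of 719 in RJ2 (96.5%, CI 94.9 to 97.7%). Of the other 48, 22 lay on chromosome 4 (45.8%), which holds 6.11% of the B6-specific list, 9 on chromosome 11 and 5 on chromosome 17. Whether they go with the *Prdm9* allele or with the rest of the strain difference cannot be told apart. These 22 intervals spread from 86575097 to 142513296, and 16 were centred beyond 128 Mb. Of the 48 intervals, 0 overlapped a B6 PRDM9 peak, 2 held the B6 matrix, 7 were centred within 1 kb of a transcription start and 18 lay under 10 kb from a common interval. The 59 wide intervals with DMC1 were spread more evenly, with 4 on chromosome 4 and 5 on chromosome 11. The next widest without DMC1 measured 6524 bp in an intron of *Adc* on chromosome 4 from 128609609 to 128616132, followed by 6083 bp between genes on chromosome 11 from 54898572 to 54904654. Without chromosome 4, the share of B6-specific intervals over 2 kb with DMC1 was 67.9% (CI 56.6 to 77.8%), and without chromosomes 4, 11 and 17 it was 79.7% (CI 67.2 to 89.0%).

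Over the whole lists, the median distance to common intervals was similar in B6 and RJ2. The median distance, edge to edge, was 23.0 kb in B6 (CI 22.1 to 24) and 23.7 kb in RJ2 (CI 23.1 to 24.3), a difference of 0.733 kb (CI -0.462 to 1.75). With only the widest RJ2-specific intervals, as many as B6 has, the difference was 8.46 kb (CI 6.76 to 9.87). The B6-specific list was kept whole there, and in both lists narrow intervals lay nearer common ones. Median widths were 510 bp in B6 and 505 bp in RJ2 under 1 kb, against 793 and 876 bp beyond 100 kb. Leaving out narrow intervals of RJ2 alone thus raises its distance, and the value is not a comparison at equal width. Under 1 kb lay 1409 B6-specific (13.0%) and 2915 RJ2-specific intervals (12.1%), and beyond 100 kb 15.5% and 16.1%. Placed between the common intervals to either side, on a scale from 0 beside one of them to 0.50 midway, 17% of B6-specific and 16.6% of RJ2-specific intervals fell below 0.05. Each later step of 0.05 held between 8.54% and 10.3% in B6 and between 8.72% and 10.2% in RJ2.

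The intervals beside common ones had other properties than the rest. Under 1 kb from a common interval, DMC1 lay in 9.01% of B6-specific (CI 7.57 to 10.6%) and 9.33% of RJ2-specific intervals (CI 8.30 to 10.4%), against 64.9% and 59.8% from 10 to 100 kb. Within 200 bp the shares were 3.65% and 3.86%, from 500 to 1000 bp 17.2% and 16.0%, and from 1000 to 2000 bp 37.1% and 35.7%. The own matrix lay in 11.3% and 10.2% of intervals under 1 kb away and in 40.0% and 42.8% of those at 10 to 100 kb. Transcription starts were centred within 1 kb of 24.6% and 17.4% of the near intervals. The near intervals had median widths of 510 and 505 bp. Common intervals were themselves often close together, with 56.9% under 1 kb from the next, and how many strain-specific intervals beside them are edges of the same enriched domain was not tested.

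**Figure D4:**
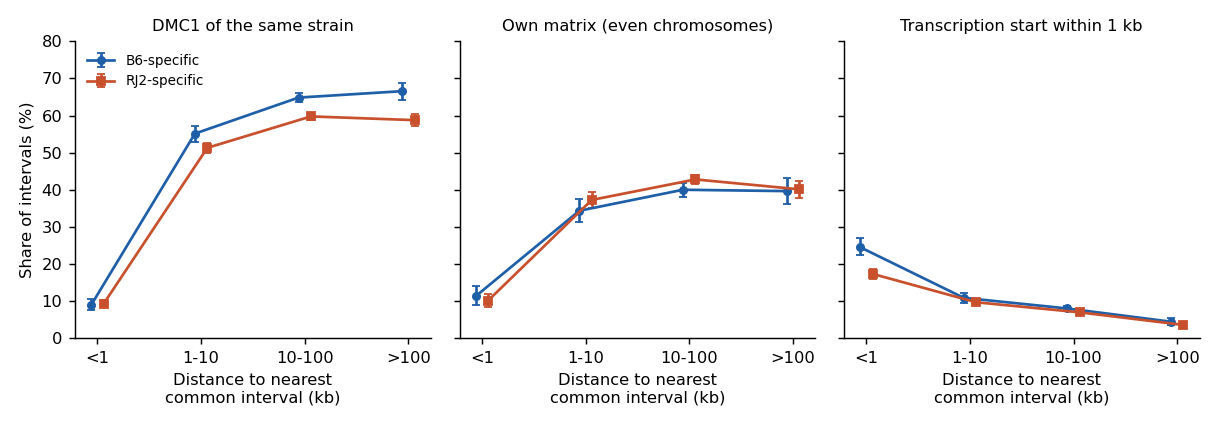
Share of strain-specific intervals (percent, vertical axis) with DMC1 of the same strain, with the own matrix on even-numbered chromosomes, or with a transcription start within 1 kb of the centre, by distance to the nearest common interval in kb (horizontal axis), for B6 (circles) and RJ2 (squares) with 95% Clopper-Pearson intervals. DMC1 is near 9% under 1 kb and above 50% in each of the 3 wider distance classes in both strains, and starts are most frequent under 1 kb (24.6% in B6 and 17.4% in RJ2).

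Intervals without DMC1 differed between the strains in sequence. On even-numbered chromosomes the own matrix lay in 9.86% of B6-specific (CI 8.63 to 11.2%) and in 18.4% of RJ2-specific intervals without DMC1 (CI 17.4 to 19.5%), whereas with DMC1 the shares were 54.8% and 54.6%. More than 10 kb from common intervals the values without DMC1 were 10.9% and 22.5%, and under 1 kb they were 7.13% and 6.63%. PRDM9 peaks of the same strain lay at 30 of the 4775 B6-specific intervals without DMC1 (0.628%) and at 407 of the 11642 RJ2-specific ones (3.50%). Of those 407 that lie on even-numbered chromosomes, 89 of 192 held the RJ2 matrix (46.4%, CI 39.1 to 53.7%). The DMC1 lists hold 14774 peaks in B6 and 15195 in RJ2, for 10835 and 24185 strain-specific intervals. The class without DMC1 therefore need not hold the same kinds of interval in both strains. The PRDM9 lists hold 2601 and 10121 peaks, and the part of these list sizes in the differences was not tested.

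DMC1 and PRDM9 centres lay close to the middle of the intervals that held them. The median offset of the DMC1 centre was 99 bp for B6 and 96 bp for RJ2, and that of the PRDM9 centre 92 and 95 bp. For 90% of intervals the DMC1 offset was at most 268 bp for B6 and 267 bp for RJ2.

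Within a list, intervals were further apart in B6, whose list is shorter. Spacing within and between lists depends on the number of intervals, so these distances are not a result apart from the ratio of numbers. The nearest interval of the same list lay at a median of 63.8 kb in B6 and 28.2 kb in RJ2. From a B6-specific interval the nearest RJ2-specific one was at 32.3 kb, and from an RJ2-specific interval the nearest B6-specific one was at 74.6 kb. Neighbours of the same list less than 1 kb apart numbered 360 pairs in B6 and 1401 in RJ2, with median gaps of 77.5 and 89 bp. Such a neighbour was found for 6.53% of B6-specific and 11.1% of RJ2-specific intervals. With intervals under 1 kb apart merged, the ratio of numbers was 2.18. Under 1 kb from the other strain's list lay 431 B6-specific (3.98%) and 450 RJ2-specific intervals (1.86%). Of these, 29.0% in B6 (CI 24.8 to 33.5%) and 23.8% in RJ2 (CI 19.9 to 28.0%) held DMC1, below the 55.9% and 51.9% of the whole lists.

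Among autosomes the ratio of RJ2-specific to B6-specific intervals was even. It ran from 2.08 on chromosome 4 to 2.53 on chromosome 7, around 2.26 for all autosomes (CI 2.21 to 2.31). Both lists were densest on chromosome 11, with 5.54 B6-specific and 11.9 RJ2-specific intervals per Mb, and sparsest among autosomes on chromosome 3, with 3.36 and 8.18 per Mb. Chromosome Y had the lowest density, with 6 and 9 intervals in all, and 1 RJ2-specific interval lay on the mitochondrial genome. Chromosome 17, which carries the congenic segment in RJ2, had a ratio of 2.22 as a whole, but the ratio was uneven along it. In windows of 10 Mb it was 1.70, 1.34 (CI 0.975 to 1.86) and 1.66 from 0 to 30 Mb. From 30 to 90 Mb it ran from 2.43 to 3.50. Which of these windows the segment covers is not in the lists, and its part in the ratios was not tested. Chromosome 17 also had the lowest autosomal share of RJ2-specific intervals with DMC1 (45.0%) and the lowest of B6-specific ones (44.5%).

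The X chromosome stood apart from the autosomes in both lists, with a lower density, more so in RJ2, and more intervals at transcription starts. Its density was 0.670 of the autosomal density in B6, 0.501 in RJ2 and 0.534 for common intervals, and its ratio of RJ2-specific to B6-specific intervals was 1.69 (CI 1.5 to 1.9). On X there were 250 B6-specific and 325 RJ2-specific intervals without DMC1 (ratio 1.3), while those with DMC1 numbered 218 and 465 (ratio 2.13). The share with DMC1 on X was thus below the autosomal one in B6, at 46.6% against 56.4%, and above it in RJ2, at 58.9% against 51.6%. Of the X-linked intervals, 120 of 468 in B6 (25.6%, CI 21.7 to 29.9%) and 115 of 790 in RJ2 (14.6%, CI 12.2 to 17.2%) were centred within 1 kb of a transcription start, against 9.51% and 8.02% on autosomes. Among X-linked intervals without DMC1 these shares were 44.4% (CI 38.1 to 50.8%) in B6 and 30.8% (CI 25.8 to 36.1%) in RJ2, compared with 16.8% and 12.8% on autosomes. X-linked intervals with DMC1 were at starts in 4.13% and 3.23%, near the autosomal 3.85% and 3.58%. Common intervals on X were at starts in 60.1%, against 34.1% on autosomes, and the share on X exceeded that on autosomes in all 3 lists. The X chromosome is largely silenced at the pachytene stage. The part of this, and of the read depth on X, in these values was not tested.

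In windows of 10 Mb the lists rose and fell together. Over 255 full windows of the autosomes and X, Spearman's rho of the numbers was 0.778 (Pearson's r 0.755) between B6-specific and RJ2-specific intervals, 0.756 between B6-specific and common intervals and 0.834 between RJ2-specific and common intervals. With the common numbers held constant by rank, the rho of the strain-specific lists was 0.409. Windows share mappability, gene density and length of known sequence between lists, and the values are a description. Between the strains the rho was 0.660 for intervals with DMC1 and 0.649 for those without. Against common intervals, intervals without DMC1 gave 0.757 in B6 and 0.838 in RJ2, and those with DMC1 gave 0.517 and 0.658.

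The fullest windows lay on different chromosomes in B6 and mostly on chromosome 11 in RJ2. The 3 fullest for B6 were 50 to 60 Mb of chromosome 11 with 91 intervals, 130 to 140 Mb of chromosome 4 with 91 and 110 to 120 Mb of chromosome 5 with 90. For RJ2 they were 80 to 90 Mb of chromosome 11 with 164 intervals, 60 to 70 Mb of chromosome 9 with 150 and 100 to 110 Mb of chromosome 11 with 146. Window ratios of RJ2 to B6 had a median of 2.29 and ran from 0.974 to 5.90. The interval of the ratio lay below the genome's 2.23 in 15 windows and above it in 9. RJ2 had no more intervals than B6 in 3 windows, at 90 to 100 Mb of chromosome 14 (37 against 38) and at 50 to 60 Mb and 110 to 120 Mb of X (46 against 46 and 22 against 22). The highest ratios stood at the proximal ends of chromosomes 1, 9 and 13, with 59 against 10, 56 against 10 and 71 against 14 intervals. A ratio tends to be high where the B6 number is small and low where it is large, so these extremes are partly set by the B6 numbers.

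**Figure D5:**
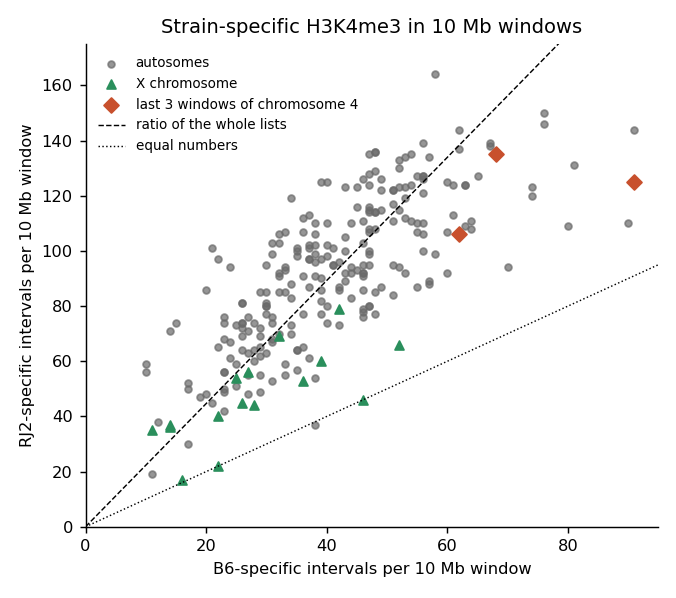
Number of RJ2-specific (vertical axis) against B6-specific H3K4me3 intervals (horizontal axis) in 255 windows of 10 Mb; triangles are windows of X, diamonds the last 3 full windows of chromosome 4, and lines mark the ratio of the whole lists (2.23, dashed) and equal numbers (dotted). The points climb together (rho 0.778), and most X windows and the 3 fullest B6 windows, with 90 or 91 intervals, lie below the dashed line. Windows picked for many B6-specific intervals tend to lie low through that choice alone.

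Of the 3 fullest B6 windows, those of chromosomes 4 and 5 also had few intervals with DMC1. From 110 to 120 Mb on chromosome 5, 35 of 90 B6-specific intervals held DMC1 (38.9%, CI 28.8 to 49.7%). In the window of 130 to 140 Mb on chromosome 4, 27 of 91 B6-specific intervals held DMC1 (29.7%, CI 20.5 to 40.2%), against a median of 57.4% over the 241 windows with at least 20 intervals. There the RJ2-specific list had 68 intervals without DMC1 to the 64 of B6, a ratio of 1.06, and 57 with DMC1 to the 27 of B6, a ratio of 2.11. The window held 8 of the 48 B6-specific intervals over 2 kb without DMC1, and the windows to either side held 6 and 5. From 10 to 20 Mb on chromosome 17 there were 46 B6-specific and 55 RJ2-specific intervals without DMC1, a ratio of 1.20, and from 50 to 60 Mb on chromosome 11 there were 46 and 80. The lowest share of intervals with DMC1 was found in both strains in the first 10 Mb of chromosome 14, with 1 of 25 in B6 (4%, CI 0.101 to 20.4%) and 9 of 59 in RJ2 (15.3%, CI 7.22 to 27%).

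In the last 10 and 20 Mb of autosomes the share of RJ2-specific intervals exceeded that of B6-specific ones, and in the last 5 Mb the shares were close. The last 10 Mb held 9.4% of RJ2-specific (CI 9.03 to 9.78%), 8.17% of B6-specific (CI 7.65 to 8.72%) and 10.1% of common intervals, with 7.69% of the autosomal length. In the last 20 Mb the shares were 18.2%, 16.5% and 19.8%, and in the last 5 Mb 4.76%, 4.6% and 4.88%. The first 10 Mb of known sequence held 6.91% of RJ2-specific and 6.89% of B6-specific intervals.

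B6-specific intervals were richer in GC as a whole and among those without DMC1, but not among those with DMC1. The median GC content of the central 200 bp was 44.5% in B6 (CI 44.0 to 44.5%), 43.0% in RJ2 (CI 43.0 to 43.5%) and 47.0% in common intervals. B6-specific intervals without DMC1 had 47.0% and those with it 42.5%, while in RJ2 the values were 43.5% and 43.0%. The ratio of observed to expected CpG dinucleotides was 0.216 in B6-specific and 0.184 in RJ2-specific intervals without DMC1 and 0.145 in both strains with it, against 0.274 in common intervals.

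Most strain-specific intervals lay in introns and between genes. In B6, 46.5% were centred in introns, 46.6% between genes and 6.82% in exons, and in RJ2 45.5%, 49.2% and 5.32%. Of intervals without DMC1, 18.2% in B6 (CI 17.2 to 19.4%) and 13.3% in RJ2 (CI 12.7 to 13.9%) were centred within 1 kb of a start, and of those with DMC1 3.86% and 3.56%.

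Of 22238 annotated protein-coding genes, 352 (1.58%) had a start in a B6-specific and 603 (2.71%) in an RJ2-specific interval, and 246 (1.11%) and 431 (1.94%) had it there and in no common interval. Among 35 genes of meiotic recombination, 30 had a start in a common interval and 0 in a strain-specific one. The 5 others were *Brca2*, which loads recombinases on DNA ends, *Ccdc36*, *Rnf212*, *Rad21l* and *Trip13*, an ATPase that removes HORMA-domain proteins from chromosome axes. Of these, *Brca2* and *Trip13* had a start within 1 kb of the edge of a common interval, which made 32 of 35 genes in or near one. Of 5 matched genes near mouse hotspots of older literature, 2 had a start in an RJ2-specific interval. The start of *Psmb9*, a subunit of the immunoproteasome, and that of *Tap1*, a subunit of the peptide transporter beside it, shared an RJ2-specific interval of 479 bp on chromosome 17 from 34324386 to 34324864. The start of *Esrrg*, an orphan nuclear receptor, lay in one of 266 bp on chromosome 1 from 189821672 to 189821937. Neither interval held DMC1, a PRDM9 peak or the RJ2 matrix.

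A transcription start lay in 444 of 10835 B6-specific and 760 of 24185 RJ2-specific intervals, a larger share in B6. The 10 widest of each, all of 2 kb and more and so part of the wide intervals above, are given as a description. In B6, 3 of the 10 held DMC1 and 5 lay on chromosome 4, and in RJ2 8 of 10 held DMC1. The B6 ones belonged to *Gm15904* (6524 bp), *Gm7120* (5548 bp), 4933427I22Rik (4524 bp), *Acer2* (4360 bp), which encodes an alkaline ceramidase, AU040320 (2810 bp), *Gm10043* (2766 bp), 4921508A21Rik (2451 bp), *Dock3* (2388 bp), 4930505H01Rik (2328 bp) and *Usp48* (2123 bp), a ubiquitin protease. Those with DMC1 were *Gm7120*, *Dock3* and *Usp48*. The RJ2 ones belonged to *Nr3c2* (4518 bp), the mineralocorticoid receptor, *Slit2* (3500 bp), an axon guidance ligand, 4933424B01Rik (2873 bp), *Gm10717* (2771 bp), *Spg7* (2743 bp), *Rpl21-ps1* (2703 bp), *Syn2* (2655 bp), a synaptic vesicle protein, 7SK (2577 bp), *Gm13637* (2554 bp) and the mitochondrial *mt-Cytb* and *mt-Nd6* (2446 bp). Those without DMC1 were *Gm10717*, on chromosome 9 from 3023846 to 3026616, and the mitochondrial interval, where no matrix was searched. Whether these 2 intervals reflect H3K4me3 was not tested, which limits the count of 8 of 10.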

How the data were processed

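The authors mapped single libraries of H3K4me3 ChIP and input per strain to mm9 with Bowtie, called peaks with MACS on 3 sets of reads, kept intervals found in each, and deposited the split into common and strain-specific positions. The submitters' notes on the series also name BWA, Bowtie2, CASAVA and MACS2. The deposited lists hold start and end positions, and a score column that is 0 in every row. Replicates of DMC1 (2 per strain) and PRDM9 (2 per strain) were pooled by the authors. Depth per interval is not in the lists, which limits a comparison of strains to positions and widths.

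Positions were read as deposited, printed from base 1, and joined to NCBIM37 sequence and GENCODE vM1 genes of the same build. Shares carry 95% Clopper-Pearson intervals and medians order-statistic intervals, which cover counting error only. With 1 library per strain no test between strains was made, and window correlations carry no p. Matrices were grown in 3 rounds from the word of 9 bases with the largest ratio of shares, with a threshold passed by 5% of windows moved by 10 kb. Overlaps, distances and matrices were tested on simulated data. The members and gene lists were chosen with earlier results of these data known. Named intervals are the widest, those holding word, DMC1 and PRDM9 at median width, the 10 widest with a start, the fullest windows, the densest and sparsest chromosomes, and listed genes with a start inside. Symbols were matched to the annotation, with older symbols from a RefSeq table of GRCm38.p6 used for names only. Alternatives changed merging, chromosomes, widths, windows, overlap rules, sequence windows, words and distances to starts. Python 3.11.15, numpy 2.4.6, scipy 1.17.1, pandas 2.3.3 and matplotlib 3.10.9 were used.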

Additional observations from a re-analysis of the deposited data

How the results depend on the processing

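No paired analysis was possible because each strain had 1 H3K4me3 library and the lists hold no value per replicate; leaving out a replicate was not possible for the same reason. Of 46 alternatives 37 were planned, and 0 turned a direction. The ratio of RJ2-specific to B6-specific intervals was 2.18 with intervals under 1 kb apart merged, 2.07 with DMC1 only and 2.44 without DMC1. The median width difference, RJ2 minus B6, of 58.0 bp was 76.0 bp over 10 kb from common intervals and 184 bp with DMC1. The window rho of 0.778 was 0.494 in windows of 1 Mb and 0.635 with as many of the widest RJ2-specific intervals as B6 has. With those, and with the B6-specific list kept whole, the median distance to common intervals exceeded that of B6 by 8.46 kb in place of 0.733 kb. The distal share difference of 1.22 percentage points was 0.156 in the last 5 Mb. The DMC1 share of the widest minus that of the narrowest of 5 width groups was 72.0 percentage points in B6 and 83.3 in RJ2, 69.1 and 79.3 with whole DMC1 intervals, and 79.1 and 88.8 with the DMC1 centre inside. At 2 kb and more, the DMC1 share of RJ2 minus that of B6 was 41.4 percentage points, 28.7 without chromosome 4 and 17.5 without chromosomes 4, 11 and 17, chosen after seeing the data.

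The GC difference of -1.50 percentage points was -0.5 in the central 1000 bp. The own minus other share of the strain word was 2.52 percentage points for B6, 3.69 with words of 8 bases, 1.15 with 10, 1.62 in the central 200 bp, 0.871 by the largest ratio and 30.6 with the matrix. For RJ2 it was 2.15, then 3.89 with words of 8 bases, 0.978 by the largest ratio and 32.6 with the matrix. The ratio rule and the matrices were added after seeing the data. The start share difference of -1.97 percentage points was -2.96 within 5 kb. Listed genes with a start in a strain-specific interval numbered 0 in B6 and 2 in RJ2, and 1 (*Kit*) and 4 (with *Stra8* and *Sohlh1*) within 1 kb of an edge. The other 19 alternatives stayed within the interval of the main value or, for rho, within 0.1 of it.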
